A study of Mus musculus with 3 samples.

Results

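The genes described here are 10 transcriptional targets of fibroblast growth factor (FGF) signalling through the kinase ERK, most of which encode inhibitors that act back on the same pathway. They are Spry1, Spry2, Spry4, Spred1, Spred2, Il17rd, Dusp4, Dusp6, Etv4 and Etv5, taken by symbol, with every array probe whose RefSeq transcript belongs to them. All 10 were on the array, with 13 probes, out of 21153 genes named there. By RefSeq transcript and mouse chromosome they are Spry1 (NM_011896, chromosome 3), Spry2 (NM_011897, 14), Spry4 (NM_011898, 18), Spred1 (NM_033524 and NM_001277256, 2), Spred2 (NM_033523, 11), Il17rd (NM_134437, 14), Dusp4 (NM_176933, 8), Dusp6 (NM_026268, 10), Etv4 (NM_008815, 11) and Etv5 (NM_023794, 16). RNA from Hopx-/- mouse embryoid bodies grown with XAV939 at 12.5 µM was set directly against RNA from Hopx+/- embryoid bodies without it, both at day 8 of cardiac differentiation, on 3 two-colour Agilent arrays. Embryoid bodies are clumps in which embryonic stem cells differentiate, and XAV939 inhibits tankyrase and so, through axin, lowers β-catenin, the transducer of Wnt signals. No null culture without the inhibitor and no heterozygous culture with it was analysed here, so genotype and inhibitor cannot be told apart. The sources used here do not give the number of stem cell lines behind each genotype.

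FGF bound to its receptor activates Ras, Raf, MEK and ERK in turn, and active ERK switches on genes that restrain the pathway. Sprouty and Spred proteins act at the level of Ras and Raf, Il17rd (also called Sef) acts at the membrane, Dusp4 and Dusp6 remove the activating phosphates from ERK and related kinases, and Etv4 and Etv5 are ETS transcription factors through which FGF signals reach other genes. In the early mouse embryo FGF4 and ERK drive the exit from naive pluripotency, and FGF signals later guide mesoderm and heart progenitors. Per the labels, both genotypes were plated in the same medium, which held bFGF at 10 ng/ml, FGF10 at 12.5 ng/ml and VEGF at 5 ng/ml. Stem cells of both genotypes had been derived from E3.5 blastocysts in a MEK1 inhibitor at 50 µM for 7 days, which was later withdrawn.

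Values are log2 ratios of null with inhibitor over heterozygous within an array, so a positive ratio is a higher level in the null cultures. They are given as mean ± SD over the 3 arrays, with p-values from limma's moderated test adjusted by Benjamini and Hochberg over all 14713 tested genes and a threshold of 0.05. According to the labels Cy5 carried the null RNA on all 3 arrays. Across probes, log2 Cy5 over Cy3 of replicate 3 nevertheless correlated negatively with replicates 1 and 2 (-0.79 and -0.89), while replicates 1 and 2 correlated positively (0.82). The ratio of replicate 3 was turned, which the authors' processed values do too, and the direction of all signs is therefore likely rather than settled. Left as the labels have it, replicate 3 opposed the others and limma passed 0 genes in either direction (13 higher and 27 lower at an unadjusted p under 0.05, none of the 10 among them). Hopx, the targeted gene, had ratios of -2.65, -2.75 and -2.73 on the arrays so turned, 6.54-fold lower in the null cultures (-2.71 ± 0.05, SD, n = 3, limma adjusted p = 2.03e-07). The sources used here do not say whether its probe lies in the deleted part. Each sample was a whole culture, where fewer cells of a type and less RNA per cell cannot be told apart.

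Of the 10 genes, 9 were bright enough to test, and in null cultures with inhibitor 5 of these were higher, 1 was lower and 3 passed in neither direction. Among all tested genes 31.5% were higher and 33.0% were lower, 64.5% in all, so passing the test was common on these arrays. The higher genes were Etv4, Dusp4, Dusp6, Etv5 and Il17rd, with mean ratios between 0.70 and 1.11. The lower gene was Spry2, at -1.94. The median ratio of the 9 tested genes was 0.70, against -0.01 for all tested genes. Were all signs turned, 1 would be higher and 5 lower.

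**Figure D1:**
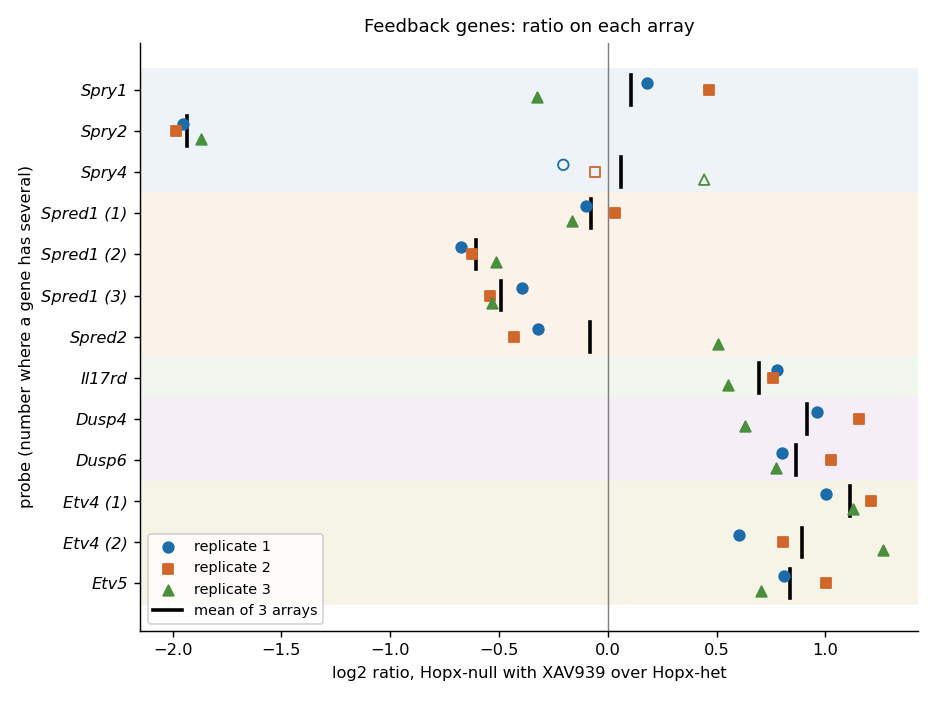
Log2 ratio of Hopx-null with XAV939 over Hopx-het for every probe of the 10 genes, with 1 point per array and a bar for the mean. Open points are Spry4, whose probe was not well above background in any sample. Etv4, Dusp4, Dusp6, Etv5 and Il17rd lie above 0 on all 3 arrays, Spry2 lies near -1.94 on all 3, and Spry1 and Spred2 fall on both sides of 0.

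Etv4 and Etv5 encode closely related ETS factors of the PEA3 group. At the brighter of its probes, Etv4 had normalized log2 intensities of 12.58, 12.83 and 12.75 in null cultures with inhibitor, against 11.58, 11.61 and 11.63 in heterozygous ones. The groups did not overlap, and Etv4 was 2.16-fold higher in the null cultures, the largest rise among the tested members (1.11 ± 0.11, SD, n = 3, adjusted p = 1.97e-05). Its other probe gave 10.12, 10.21 and 10.73 in null cultures, against 9.52, 9.41 and 9.47 in heterozygous ones. This probe was also higher in every null sample, at a ratio of 0.89 ± 0.34, with replicate 3 the farthest from 0. Etv5 had log2 intensities of 13.98, 14.18 and 14.16 in null cultures and 13.17, 13.17 and 13.46 in heterozygous cultures. All null samples were above all heterozygous ones, and Etv5 was 1.79-fold higher (0.84 ± 0.15, SD, n = 3, adjusted p = 0.000135).

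Dusp6 encodes a phosphatase of the cytoplasm that is selective for ERK, and Dusp4 a nuclear one with a wider choice of substrates. Dusp6 had log2 intensities of 12.66, 12.08 and 12.36 in null cultures with inhibitor and 11.86, 11.06 and 11.59 in heterozygous cultures. The level varied between arrays in both groups together, with replicate 2 the lowest in each, while the ratio within an array was 0.80, 1.03 and 0.77. Dusp6 was 1.82-fold higher in the null cultures (0.87 ± 0.14, SD, n = 3, adjusted p = 0.000103). Dusp4 had log2 intensities of 11.76, 11.73 and 11.58 in null cultures and 10.80, 10.57 and 10.94 in heterozygous cultures. The groups did not overlap, and the difference was smallest on replicate 3. Dusp4 was 1.89-fold higher in the null cultures (0.92 ± 0.26, SD, n = 3, adjusted p = 0.000186).

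Il17rd encodes a transmembrane protein that binds FGF receptors and holds back ERK signalling. Its log2 intensities were 12.02, 12.00 and 11.73 in null cultures with inhibitor, against 11.25, 11.24 and 11.18 in heterozygous ones. The lowest null sample, replicate 3, was still above the highest heterozygous sample. Il17rd was 1.62-fold higher (0.70 ± 0.12, SD, n = 3, adjusted p = 0.000359), the smallest rise of the 5. The 95% confidence intervals of the 5 mean ratios were 0.88 to 1.34 for Etv4, 0.64 to 1.19 for Dusp4, 0.63 to 1.1 for Dusp6, 0.60 to 1.08 for Etv5 and 0.46 to 0.93 for Il17rd. These intervals overlap one another, and differences between the 5 genes were not tested. Rises of this size were frequent: 925 of the 14713 genes (6.29%) had a ratio at or above that of Etv4, and 2177 (14.8%) at or above that of Il17rd.

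Spry2 encodes a Sprouty protein, which receptor kinases induce and which inhibits Ras and Raf activation. Its log2 intensities were 7.79, 7.47 and 7.76 in null cultures with inhibitor, against 9.74, 9.45 and 9.63 in heterozygous ones. The groups were far apart and the ratios nearly equal, at -1.95, -1.99 and -1.87 on the 3 arrays. Spry2 was 3.83-fold lower in the null cultures (-1.94 ± 0.06, SD, n = 3, adjusted p = 8.2e-07), with a 95% confidence interval of -2.16 to -1.71. A ratio at or below that of Spry2 was found for 318 of the 14713 genes (2.16%). Its probe was well above background in all null and all heterozygous samples. With the local backgrounds that the scanner software marks as outliers kept rather than replaced, the mean ratio of Spry2 was -1.26 and still passed (limma adjusted p = 0.0186).

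**Figure D2:**
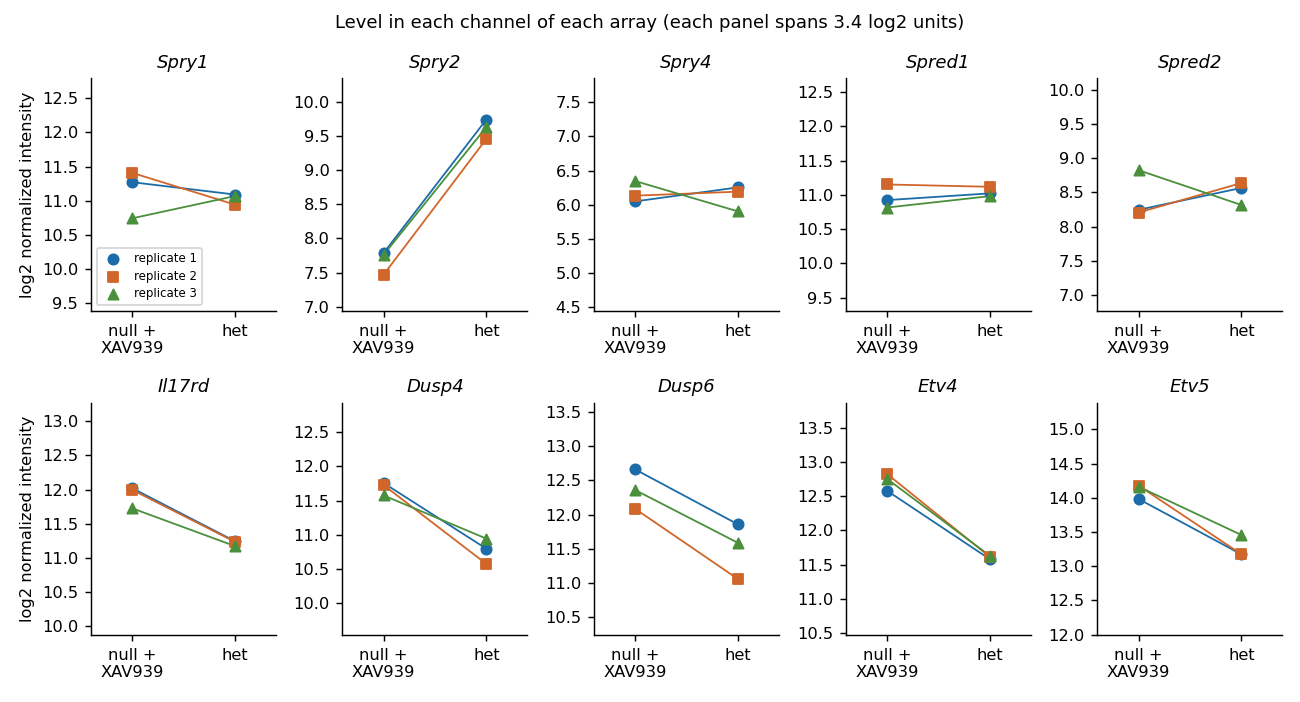
Normalized log2 intensity of the 10 genes, at the probe used for each, in Hopx-null cultures with XAV939 (left of each pair) and Hopx-het cultures (right), with lines joining the samples of an array. Levels are to be compared within a gene and not between genes, since probes differ in brightness. Spry2 is lower in null on all 3 arrays, while Etv4, Etv5, Dusp4, Dusp6 and Il17rd are higher in null on all 3.

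Spry1, another Sprouty gene, was brighter than background in every sample and did not pass the test. Its log2 intensities were 11.27, 11.41 and 10.74 in null cultures with inhibitor, against 11.09, 10.94 and 11.07 in heterozygous ones. Null was higher on replicates 1 and 2 and lower on replicate 3, and the groups overlapped, for a mean ratio of 0.11 ± 0.40 (SD, n = 3, adjusted p = 0.551). The 95% confidence interval, -0.23 to 0.44, holds changes in either direction but does not reach the fall seen for Spry2. Spry4, of the same family, was not well above background in any null or heterozygous sample. Its log2 intensities of 6.05, 6.13 and 6.35 in null cultures and 6.26, 6.19 and 5.90 in heterozygous cultures lie near the lowest signals marked as well above background, and no fold is given for it.

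Spred1 and Spred2 encode membrane proteins related to Sprouty that bring neurofibromin to the membrane and so limit Ras. At the brightest of its 3 probes, Spred1 had log2 intensities of 10.92, 11.15 and 10.81 in null cultures with inhibitor, against 11.02, 11.12 and 10.98 in heterozygous ones. These groups overlapped, and the mean ratio was -0.08 ± 0.10 (SD, n = 3, adjusted p = 0.529). The 2 dimmer probes were both lower in every null sample. A probe of the same transcript read 9.08, 9.22 and 9.34 in null cultures and 9.76, 9.84 and 9.86 in heterozygous cultures, at a ratio of -0.60 ± 0.08 (limma adjusted p over all probes = 0.000791). A probe of another Spred1 transcript read 6.30, 6.35 and 6.53 in null cultures, where it was well above background on 2 of 3 arrays, and 6.70, 6.90 and 7.06 in heterozygous cultures, at a ratio of -0.49 ± 0.08 (limma adjusted p over all probes = 0.00254). The probes of Spred1 therefore disagree, and the mean over its 3 probes, -0.39, passed the test as lower (limma adjusted p = 0.00424). In all, 9 of the 12 tested probes of the 10 genes passed, against 60.1% of all tested probes.

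Spred2 had log2 intensities of 8.24, 8.21 and 8.82 in null cultures with inhibitor, against 8.56, 8.64 and 8.32 in heterozygous ones. Null was lower on replicates 1 and 2 and higher on replicate 3, and the mean ratio was -0.08 ± 0.51 (SD, n = 3, adjusted p = 0.701). Before replicate 3 was turned, Cy5 was dimmer than Cy3 on all 3 arrays, with log2 Cy5 over Cy3 of -0.32, -0.43 and -0.51. The same holds for Spry1 with the opposite sign, at 0.18, 0.46 and 0.33. With the dye as a term in the fit, the Cy5 minus Cy3 term was -0.44 for Spred2 and 0.32 for Spry1. The null over heterozygous ratios became 0.07 and -0.0013. Only replicate 3 was turned, so the term sets that array against replicates 1 and 2. Dye therefore cannot be told apart from anything else particular to replicate 3. Without replicate 3, where null would be in Cy5 on both arrays left, Spry1 passed as higher at 0.32 (limma adjusted p = 0.0147) and Spred2 as lower at -0.38 (limma adjusted p = 0.00374). Over all 24386 tested probes the median absolute size of this term was 0.11, and 2.85% of them reached 0.4 or more. At the dimmer Etv4 probe the term was -0.28, beside a ratio of 0.98 with the term in the fit.

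**Figure D3:**
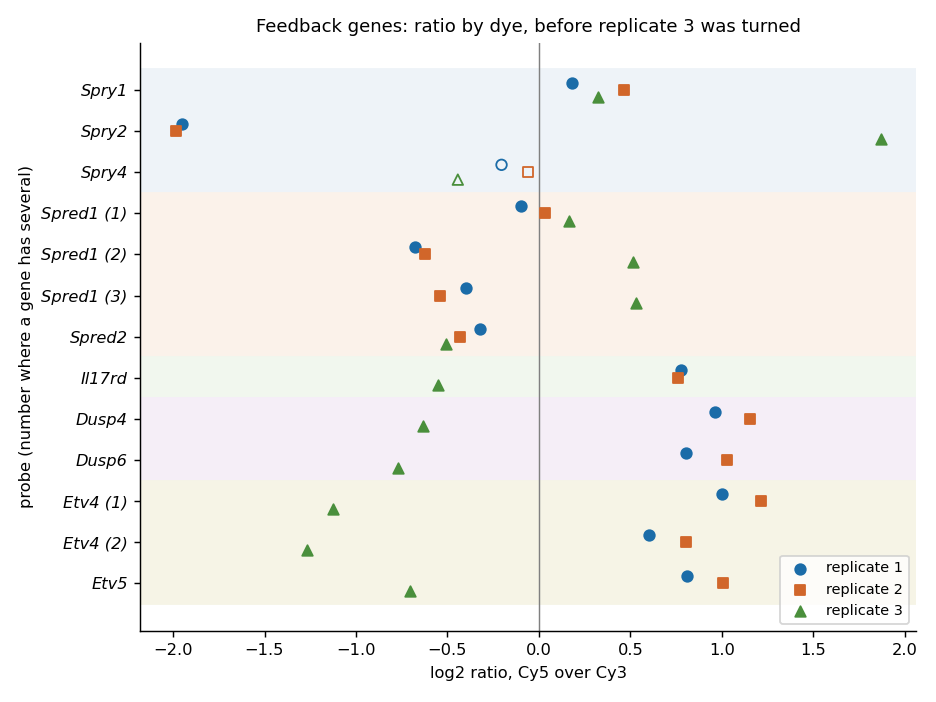
Log2 ratio of Cy5 over Cy3 for every probe of the 10 genes before replicate 3 was turned, with 1 point per array and open points for Spry4. Spry1 lies to the right of 0 and Spred2 to the left on all 3 arrays, while for Spry2, Il17rd, Dusp4, Dusp6, Etv4 and Etv5 replicate 3 lies across 0 from replicates 1 and 2.

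The bases just before a gene's start are shown for the called genes whose outermost annotated start has a RefSeq window, since ETS factors such as Etv4 and Etv5 bind DNA around a GGAA core. Windows of 250 bases before the start, from RefSeq on GRCm38.p6, were matched by symbol for 7 of the 10 genes, 8 windows in all. Capitals mark GGAA or its reverse complement TTCC, and each sequence reads 5′ to 3′ on the gene's strand, ending next to the start. Dusp6 lies on the plus strand (chr10:99262981-99263230), Etv5 on the minus strand (chr16:22439571-22439820) and Spry2 on the minus strand (chr14:105896820-105897069).
Dusp6: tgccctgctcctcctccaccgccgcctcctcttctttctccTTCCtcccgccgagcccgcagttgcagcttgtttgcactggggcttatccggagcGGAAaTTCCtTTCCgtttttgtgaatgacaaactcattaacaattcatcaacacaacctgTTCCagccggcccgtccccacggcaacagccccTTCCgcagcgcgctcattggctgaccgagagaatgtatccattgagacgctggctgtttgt
Etv5: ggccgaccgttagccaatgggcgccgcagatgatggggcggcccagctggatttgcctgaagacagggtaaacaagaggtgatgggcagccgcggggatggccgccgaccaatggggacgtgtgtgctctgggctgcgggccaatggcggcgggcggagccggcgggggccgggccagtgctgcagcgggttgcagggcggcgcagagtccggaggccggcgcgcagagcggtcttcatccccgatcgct
Spry2: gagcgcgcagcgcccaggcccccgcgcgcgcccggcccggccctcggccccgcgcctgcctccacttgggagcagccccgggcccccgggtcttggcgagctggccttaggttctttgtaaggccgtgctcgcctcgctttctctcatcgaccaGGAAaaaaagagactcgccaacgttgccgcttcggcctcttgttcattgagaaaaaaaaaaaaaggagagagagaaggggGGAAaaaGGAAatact
The core was matched 6 times before Dusp6, which was higher, 3 times before Spry2, which was lower, and 0 times before the outer start of Etv5. Before an inner start of Etv5, whose window is not printed, it was matched 4 times. GGAA on either strand was in 7 of the 8 windows, against 93.5% of 32841 windows of this length, where the median was 3 matches. The longer form CCGGAA, which contains GGAA, was in 0 of the 8 on either strand, against 12.0% of all windows. Such a match is a string of letters and does not show binding.

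The genes upstream of these targets moved in both directions. Of 23 FGF ligands and receptors 18 were tested, with 6 higher and 10 lower in null cultures, and a median ratio of -0.34, against 31.5% and 33.0% of all genes. Fgf5 (3.99 ± 0.40) and Fgf4 (2.31 ± 0.44), ligands of the epiblast, had the highest ratios. Fgfr4 (-2.62 ± 0.05) and Fgfr3 (-2.56 ± 0.19), both receptors, had the lowest. Fgfr3 was at -1.67 with the mean over its probes. Fgf21 was marked above background only in null samples and Fgf6 only in heterozygous ones, so each entered the test only through the group where it is high. Fgf3 and Fgf7, both lower and named for this limit, were so marked in every heterozygous sample but in only 1 null sample each. With both channels required the list had 5 higher and 7 lower. The counts were 5 and 4 with centring on the median in place of loess, 3 and 5 with the marked local backgrounds left in, 4 and 5 with the authors' processed values and 5 and 6 without replicate 2.

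Of 20 genes of the cascade from adaptor to ERK, all tested, 5 were higher and 10 lower, with a median ratio of -0.24. Hras (0.65 ± 0.10), a small GTPase, was among those that rose. Frs2 (-1.66 ± 0.40), the adaptor that docks on FGF receptors, and Braf (-1.12 ± 0.38), a kinase upstream of MEK, had the lowest ratios. Among 14 further inhibitors of the pathway 13 were tested, 5 higher and 5 lower, with a median of -0.03. Spred3 (0.97 ± 0.12), a relative of Spred1, and Rasa1 (0.62 ± 0.26), a GTPase activator of Ras, led the rises, while Dusp9 (-1.49 ± 0.32), an ERK phosphatase, and Errfi1 (-0.83 ± 0.24), an inhibitor of the EGF receptor, led the falls. Spred3 passed at 2.15 with the Feature Extraction log ratio, but not at 0.48 with the marked backgrounds left in, where Rasa1 (0.30) did not pass either. Errfi1 (-0.56) did not pass with centring on the median. Higher and lower counts also moved with the processing. Centring on the median left 4 higher and 3 lower in the cascade and 2 and 1 among the further inhibitors. With both channels required to be well above background the cascade had 5 higher and 8 lower. Leaving the marked backgrounds in gave 4 and 6 in the cascade and 0 and 4 among the inhibitors. With the authors' values these were 3 and 8 in the cascade and 2 and 5 among the inhibitors, and without replicate 1 or 2 the inhibitors had 3 higher.

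Among 19 further genes known to respond to ERK, 16 were tested, with 5 higher, 7 lower and a median of -0.11. Ccnd1 (1.88 ± 0.10), which encodes cyclin D1, and Etv1 (1.54 ± 0.20), the remaining PEA3 factor, had the highest ratios. Etv1 thus moved in the direction of Etv4 and Etv5. Phlda1 (-1.16 ± 0.16) and Fos (-1.09 ± 0.19), an immediate early transcription factor, had the lowest. Of 13 other receptor tyrosine kinases 12 were tested, 1 higher and 7 lower, with a median of -0.46. The rise was Kdr (0.53 ± 0.27), a VEGF receptor, and the largest falls were Pdgfra (-2.49 ± 0.40), a PDGF receptor, and Flt1 (-1.20 ± 0.18), another VEGF receptor. Tek, the angiopoietin receptor, was the highest of the 7 lower genes (-0.34 ± 0.28, limma adjusted p = 0.0404). Kdr (0.18) did not pass with the mean over probes, which left 0 higher, nor without replicate 1 (0.37). Fos (-0.72) and Tek (-0.26) did not pass with the marked backgrounds left in, and Tek also missed without replicate 2 (-0.30) or replicate 3 (-0.22). The ERK targets had 3 higher and 3 lower both with centring on the median and with the marked backgrounds left in, and 3 higher without replicate 1. The receptor kinases had 3 and 4 lower under those settings. The excess of lower over higher genes in the FGF and cascade lists was thus absent with centring on the median. That setting moved all genes upward, to a median of 0.10, with 60% of all calls higher against 48.9% in the main fit. The 10 target genes had 5 higher and 1 lower under it and with the marked backgrounds left in.

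**Figure D4:**
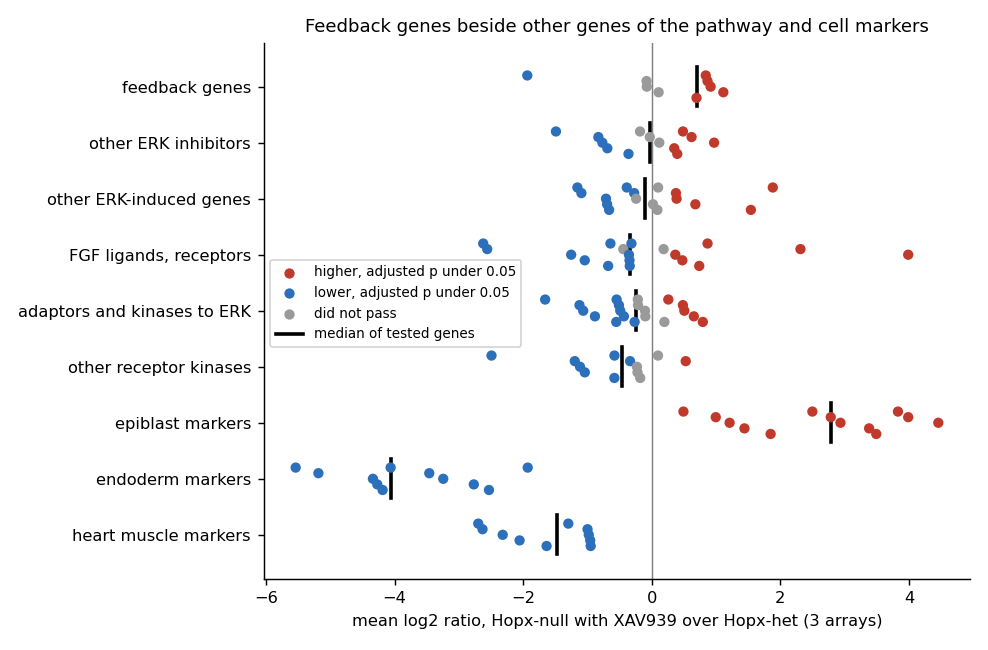
Log2 ratios of Hopx-null with XAV939 over Hopx-het for the tested genes of the 10 targets, of 5 lists of the pathway around them and of 3 lists of cell type markers, with 1 point per gene coloured by the test and a bar for each list's median. The 10 targets have a median of 0.70 and the 5 pathway lists medians between -0.46 and -0.03. The epiblast list lies wholly above 0, and the endoderm and heart muscle lists wholly below.

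Cell type markers also differed between the null cultures with inhibitor and the heterozygous ones. Their lists were chosen with earlier results of these data known, and among all tested genes 31.5% were higher and 33.0% lower. All 13 epiblast and pluripotency markers were higher, with a median ratio of 2.78, from Tdgf1 (0.49 ± 0.30) and Nanog (1.00 ± 0.14) to Fgf5 and Pou3f1 (4.46 ± 0.28). They had a summed normalized intensity of 136809 to 172411 in null cultures with inhibitor, against 18808 to 25375 in heterozygous ones. All 11 endoderm markers were lower (median -4.06), from Gata6 (-1.93 ± 0.32) and Sox17 (-2.53 ± 0.10) down to Rbp4 (-5.18 ± 0.36) and Cubn (-5.54 ± 0.61), summing to 7368 to 13821 in null cultures and 159417 to 177114 in heterozygous ones. All 10 heart muscle markers were lower too (median -1.47), from Actc1 (-0.95 ± 0.38) and Tnnt2 (-0.96 ± 0.14) down to Myh7 (-2.63 ± 0.36) and Myl3 (-2.70 ± 0.07), with sums of 57009 to 69596 in null cultures and 202464 to 222870 in heterozygous cultures. The groups did not overlap in any of these sums, and every marker of the 3 lists was bright enough to test. Such sums, here and below, add probes that differ in brightness, so the brightest weigh most. Dnmt3b, picked for its brightness, had log2 intensities of 15.34 to 16.20 in null cultures, and Rbp4 15.90 to 16.39 in heterozygous cultures. Fgf5 is in both the epiblast and the FGF list. With centring on the median Tdgf1 (0.59) and Actc1 (-0.59) did not pass, and Tdgf1 did not pass without replicate 2 either (0.33). Nanog was at 0.41, and still passed, with the mean over its probes.

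The other markers moved less evenly. Of 8 neural markers 5 were tested, with 3 higher (Tubb3 3.48 ± 0.25, Nes 2.60 ± 0.33 and Map2 1.27 ± 0.12) and 0 lower at a median of 1.27. Sox1 (0.32 ± 0.31) and Dcx (0.07 ± 0.15) did not pass. Pax6, Neurod1 and Neurog2 were too dim to test, and all 8 are named here to complete the list. Sums over the 8 were 10389 to 11601 in null cultures with inhibitor and 1902 to 2318 in heterozygous cultures. Among 8 fibroblast markers 1 was higher (Thy1, 0.97 ± 0.06) and 5 were lower (Col1a1 -2.81 ± 0.38 and Fbln1 -2.25 ± 0.35 the lowest, Col1a2 -0.82 ± 0.60 the highest of the 5), at a median of -1.15, with sums of 18254 to 28159 in null cultures and 34250 to 49675 in heterozygous cultures. Of 8 endothelium and blood markers 7 were tested, 5 higher (Cdh5 1.34 ± 0.25 and Tal1 1.06 ± 0.37 the highest, Tie1 0.79 ± 0.24 and Hbb-bh1 0.39 ± 0.38 the lowest) and 0 lower (median 0.79), with sums of 47601 to 68371 in null cultures and 34964 to 48796 in heterozygous cultures, which overlap. Left in, the marked local backgrounds ended the calls of Map2 (0.59), Col1a2 (-0.77), Tal1 (0.73) and Hbb-bh1 (0.38), for 3 lower fibroblast markers and 2 higher endothelium and blood markers, and moved Tie1 to 0.51. Col1a2 (-0.51) did not pass with centring on the median. Map2 was at 2.92 with the Feature Extraction log ratio and 0.69 with the authors' values, and passed in both. Hbb-bh1 did not pass without replicate 1 (0.25) or replicate 3 (0.31). The part of these shifts in the ratios of the 10 target genes was not tested.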

How the data were processed

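Total RNA was compared on 3 two-colour Agilent arrays, replicates 1 to 3 in the labels. The deposited spot and background intensity values are median pixel signals in each channel, extracted with Agilent Feature Extraction (11.5.1.1 per the file headers, 8.5.1.1 in the submitters' processing notes) on probe design 026655. Per the file headers each file also holds the Feature Extraction log10 ratio of the dyes, Cy5 over Cy3. The authors' processed values behave as log2 ratios, judging from their slopes on log2 Cy5 over Cy3 (0.688, 0.799 and -0.797, r 0.885, 0.945 and -0.940). Their normalization and centring are not stated, and their columns have medians of 0.086, -0.08 and 0.053. The marks read, a score of 0 or 1 per the file headers, cover saturation, outliers and a signal well above background. Spots marked as outliers were left out, and the mark for a signal well above background set which probes were tested. Saturated spots were not left out.

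Background was corrected by normexp with an offset of 50 in limma 3.58.1 under R 4.3.3, and loess normalized every array, with control spots given no weight. Where a local background was marked as an outlier, the median of the unmarked ones in that channel took its place. Probes were named through RefSeq accessions (28025 of 39429 had 1 symbol). Tests took probes that 1 channel or both marked well above background on every array, and the brightest such probe stood for its gene. The mean log2 ratio was tested against 0 with limma's moderated test, adjusted by Benjamini and Hochberg over 14713 genes. A step that simulated ratios with known changes was used to check the test, but its outcome is not given here and adds no support to the p-values. Opposite calls between probes of a gene occurred in 199 of 3800 genes with more than 1 tested probe. The 3 arrays limit the precision, with a median SD of 0.166 over the arrays on the log2 scale, and whether the labelled biological replicates are separate lines is not given, so p-values measure the spread between these arrays. Between 55.4% and 65.7% of probes were well above background in null samples, against 60.6% to 67.2% in heterozygous samples.

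Replicate 1 lay on one slide and replicates 2 and 3 on another. The design assumed Cy5 to hold null RNA on all arrays; turning replicate 3 was decided from the data. The 10 genes and the 11 gene lists were chosen with earlier results of these data known. From each list the text names the genes with the 2 highest and the 2 lowest ratios among those that passed, and says where a gene was picked otherwise. One gene that this rule would name is not reported here. Alternatives covered background, normalization, the filter, the choice of probe, the dye, the authors' values, the slides and leaving out each array.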

Additional observations from a re-analysis of the deposited data

How the results depend on the processing

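Apart from the use of replicate 3 as labelled, 15 alternatives were run, of which weighting the slides equally was chosen after seeing the data. Spry2, Il17rd, Dusp4, Dusp6, Etv4 and Etv5 kept their sign and passed under all 15, with ratios of -2.35 to -1.26, 0.66 to 0.94, 0.80 to 1.14, 0.77 to 1.12, 1.00 to 1.38 and 0.76 to 1.16 in that order. Over all genes, 2663 were higher and 2253 lower with marked local backgrounds kept, 3031 and 2019 with centring on the median and no loess (60% of calls higher, against 48.9%), and 7006 and 7661 with each probe as a feature, where more features are tested. Median centring moved the median of all genes to 0.10 and Spred1 to 0.14, and keeping marked backgrounds moved Spred2 to 0.060. With the mean over probes 2 of the 10 genes were lower. The dye term gave Spry1 -0.0013 and Spred2 0.066. Leaving out 1 array gave 1 to 2 lower members, Spry1 between -0.072 and 0.32 and Spred2 between -0.38 and 0.094. With replicate 3 as labelled, limma called 0 genes higher and 0 lower (13 and 27 at an unadjusted p under 0.05, 0 of them members), and Spred1 stood at 0.034, Tek at 0.047 and Col1a2 at 0.0066. Of the other genes named, Tek did not pass under 8 of the 15 and Hbb-bh1 under 7. The cause of these changes was not tested beyond the number of features or arrays used. No separate paired analysis was run, because each ratio is already within an array and the test of these ratios is itself paired. A random block for slide could not be estimated from 3 arrays and was not run. Spry4 lay too near background for a ratio.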
